A study of Mus musculus with 2 samples.

Results

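The *H19*, *Igf2* and *Igf2as* locus is made up of 3 genes chosen by name and position on distal chromosome 7 of the mouse (mm9), of 1718 annotated genes inside the genome stretches that the deposited tracks cover (37310 genes are annotated in all). *H19* lies at chr7:149761434-149764048 on the (−) strand, *Igf2* at chr7:149836673-149852721 on (−), and *Igf2as* at chr7:149845598-149856261 on (+). RNA was measured in 2 libraries, 1 per reciprocal cross. JXO was a cross of a JF1 mother (*Mus musculus molossinus*) with a TgOG2 father, and OXJ a cross of a TgOG2 mother with a JF1 father. TgOG2 is a line of CBA/CaJ and C57BL/6J (*domesticus*) descent that carries the GOF18ΔPE-EGFP transgene, a green fluorescent reporter driven by *Pou5f1* sequences, so both crosses hold the transgene, on chromosomes from opposite parents. Each library came from mouse embryo fibroblasts (MEFs) of a female embryo of 13.5 dpc at passage 2-3, so cross, embryo, culture and library cannot be told apart, and no difference between JXO and OXJ has a replicate check.

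This locus is a textbook case of genomic imprinting, in which the parental origin of a chromosome decides whether a gene is read. *H19* is a long non-coding RNA expressed from the maternal chromosome, while *Igf2*, a growth factor of the fetus that signals through the IGF1 and insulin receptors and is cleared by the receptor *Igf2r*, and its antisense transcript *Igf2as* are expressed from the paternal chromosome. Between them lies a control region that binds the insulator protein CTCF when it is unmethylated, on the maternal chromosome, and keeps the shared enhancers beyond *H19* from reaching *Igf2*. In the known pattern *H19* RNA is therefore of JF1 origin in JXO and of OG2 origin in OXJ, and *Igf2* and *Igf2as* RNA the reverse. Bases that differ between the strains are not marked in the tracks, so alleles were not analysed here.

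The sequences that frame the data come first. The H19 promoter is shown because *H19* begins there so sharply in both libraries. It is given as 100 bases before the annotated start in lower case followed by the first 50 bases of exon 1 in capitals (chr7:149763999-149764148 of mm9, (−) strand).
H19 promoter: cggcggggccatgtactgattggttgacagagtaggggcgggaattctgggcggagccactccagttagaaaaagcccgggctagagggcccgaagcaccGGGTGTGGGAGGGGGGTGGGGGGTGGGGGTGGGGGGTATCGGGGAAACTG
Of those 50 exon bases, 35 are G. The edges of the 4 short introns of *H19* are shown because the RNA signal changed so steeply at them. Each line gives 30 bases of mm9 with the exon part in capitals.
H19 intron 1 donor: GGAGACTAGGgtaagtgtctgtcccgctcg
H19 intron 1 acceptor: gtcttcatttctccctatagCCAGGTCTCC
H19 intron 2 donor: AGCCTTCTTGgtgagcatactccctgccac
H19 intron 2 acceptor: caggattctgtcctttgcagAACACCATGG
H19 intron 3 donor: AAGATGAAAGgtgagttctcttctgcccca
H19 intron 3 acceptor: tcattctctcccacccatagAAATGGTGCT
H19 intron 4 donor: CTGCTCCAAGgtgagctggggcaccctttg
H19 intron 4 acceptor: tgtctttattctctttgcagGTGAAGCTGA
Every intron starts with GT and ends with AG on the (−) strand.

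*H19* and *Igf2* each carry a microRNA, *Mir675* and *Mir483*, both matched by symbol in RefSeq. The mature sequences (GRCm38.p6, each hairpin identical in mm9) are shown with the seed, bases 2 to 8, in capitals, because the hairpins sit in parts of *H19* and *Igf2* that differed widely in signal. No seed is shared among the 4.
mmu-miR-675-5p: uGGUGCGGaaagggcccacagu
mmu-miR-675-3p: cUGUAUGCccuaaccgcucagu
mmu-miR-483-5p: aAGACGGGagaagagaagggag
mmu-miR-483-3p: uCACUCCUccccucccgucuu
The *Mir675* hairpin (chr7:149762969-149763052) lies in exon 1 of *H19*, and the *Mir483* hairpin (chr7:149840829-149840901) in an intron of *Igf2*.

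The tracks give depth on either strand, scaled by the authors to 50000000 aligned reads, so a level below is the mean number of reads over a base per 50000000 aligned reads. A read was worth 0.652 in JXO and 0.579 in OXJ, and the tracks held 5837225 and 5785447 reads, which is 7.61% and 6.70% of the aligned reads. Intervals of 95% are exact Poisson intervals on read pairs, or binomial intervals for ratios and shares (Clopper-Pearson), and cover counting error only. Signal lay on the annotated strand in 443 of 456 protein-coding genes in JXO and 438 of 451 in OXJ. Of 10 fibroblast markers, 3 lay inside the covered stretches. *Col1a2* (collagen) had a level of 583 in JXO and 388 in OXJ, *Lum* 18.9 and 15.5, and *Dcn* 22.9 and 25.9. The pluripotency gene *Pou5f1* and *Dppa3* were at 0 in both, and the germ cell gene *Ddx4* was at 0.980 in JXO and 4.14 in OXJ. The markers of liver, muscle, blood, endothelium and epithelium were outside the stretches and were not analysed here.

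*H19* was among the most abundant RNAs measured. The (−) level of its exons was 7469 for JXO (counting interval 7430 to 7509) and 8112 for OXJ (8073 to 8152), and they ranked 3 in JXO and 2 in OXJ among all genes covered. The only genes above it were the *Mir675* hairpin within its own exon 1 and, in JXO, *Actb*, the cytoskeletal actin. *H19* took 0.354% of all aligned reads in JXO and 0.385% in OXJ. For *Igf2* the exon level was 765 in the JXO library (756 to 773) and 464 in the OXJ library (458 to 471), with a rank of 25 in JXO and 30 in OXJ. *Igf2as* was far lower, at 10.3 (9.33 to 11.3) for JXO and 4.18 (3.61 to 4.81) for OXJ, and ranked 473 and 556. *H19* exceeded *Igf2* 9.77-fold in JXO and 17.5-fold in OXJ, and *Igf2* exceeded *Igf2as* 74.3-fold and 111-fold, per base of exon. The order *H19*, *Igf2*, *Igf2as* was thus the same in both libraries, with steps much larger than the counting intervals.

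**Figure D1:**
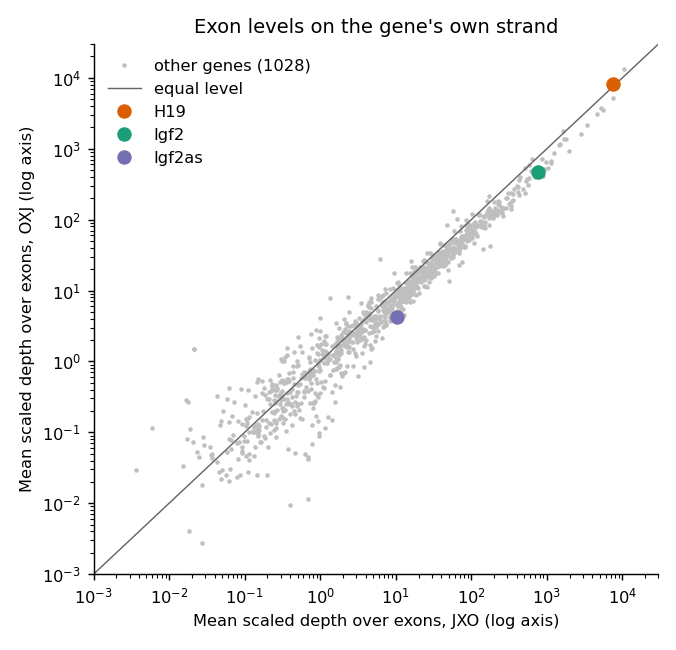
Mean scaled depth over exons on the gene's own strand in JXO (horizontal) and OXJ (vertical), both on log axes, for genes with signal in both libraries (grey), with *H19*, *Igf2* and *Igf2as* marked. *H19* (7469 in JXO and 8112 in OXJ) lies just above the line of equal level, and *Igf2* (765 and 464) and *Igf2as* (10.3 and 4.18) lie below it.

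The members differed in how JXO compared with OXJ. The log2 ratio of JXO over OXJ was -0.12 for *H19* (95% interval -0.13 to -0.11), 0.72 for *Igf2* (0.69 to 0.74) and 1.30 for *Igf2as* (1.05 to 1.55). These values have to be read against all genes, since the median of 550 genes with at least 10 reads per exon base in a library was itself 0.52, and the middle 80% of genes ran from -0.04 to 0.94. In bulk RNA of a culture, a change in the cells present and a change in RNA per cell cannot be told apart. Relative to that median gene, *H19* stood at -0.64, *Igf2* at 0.19 and *Igf2as* at 0.78. The ratio was lower than that of *H19* in 8.18% of the 550 genes and higher than that of *Igf2* in 29.8%. It was higher than that of *Igf2as* in 1.64%. A 2-fold or larger ratio was found in 48 of these genes (8.73%), 44 of them higher in JXO and 4 higher in OXJ, and *Igf2as* was the member among them. It met the read minimum through JXO alone (15.8 reads a base in JXO, against 7.22 in OXJ), so its place among these genes depends on that minimum and is given as a description. With the median gene set equal between the libraries, *Igf2as* no longer reached 2-fold. The direction of the *H19* ratio was below 0 under each scaling tried, and that of *Igf2* and *Igf2as* above 0.

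The genes nearest in level to each member were taken by the distance of their log2 exon levels over the 2 libraries, as a description with no statement on shared control. Nearest to *H19* were *Actb* (7480 in JXO and 5243 in OXJ), *Mir675* itself, and *Ctgf*, a matricellular growth factor gene (5282 and 3773). Nearest to *Igf2* were *Kpnb1*, a nuclear import receptor (809 and 470), the ribosomal protein gene *Rps3* (751 and 499) and the pseudogene *Gm14279* (769 and 421). Nearest to *Igf2as* were *Asb4* (10.9 and 3.88), *Gm15050* (12.1 and 4.20) and *Cap2* (8.76 and 4.28).

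Signal followed the *H19* model closely. Exon 1 had a level of 7589 in JXO and 7972 in OXJ, exon 2 of 8533 and 11597, exon 3 of 7628 and 8421, exon 4 of 7598 and 7239, and exon 5 of 7985 and 8938. The exons thus spanned 7589 to 8533 in JXO, while in OXJ exon 2 stood above the others and exon 4 lowest. The introns, of 78 to 88 bases, had levels of 17.2 (JXO) and 16.8 (OXJ) for intron 1, 17.0 and 20.3 for intron 2, 33.1 and 28.7 for intron 3, and 19.3 and 18.5 for intron 4. Over the bases that lie in no annotated exon, the intron level was 0.225% of the exon level in JXO and 0.206% in OXJ. These introns are shorter than a read of 100 bases, so a read that enters them without splicing also covers exon bases.

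The change at the splice sites printed above took place within 20 bases on either side. At the donor of intron 1, the last 20 exon bases had a level of 8738 in JXO and 12943 in OXJ, against 20.5 and 24.1 in the first 20 intron bases. At the donor of intron 3 the exon side had 8273 and 8260, and the intron side 16.3 and 12.1, which is a 509-fold step in JXO and a 683-fold step in OXJ. The smallest step was at the acceptor of intron 3, 88.9-fold in JXO and 91.4-fold in OXJ. An additional intron that the transcript H19-005 removes from exon 1 (chr7:149763546-149763926) had a level of 7351 in JXO and 7453 in OXJ, like the rest of the exon. The same held for the intron of H19-002 (chr7:149762827-149763317), at 8963 and 9616. The depth therefore did not drop over these optional introns as it did over the 4 introns of H19-001.

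*Mir675* lay in a stretch of exon 1 that was read above the level of the whole exon. The hairpin was at 10343 in JXO (10096 to 10594) and 13357 in OXJ (13092 to 13625), against 7589 and 7972 over exon 1. *Mir483*, a microRNA inside an *Igf2* intron, reached 1.19 (0.00598 to 8.89) for JXO and 2.28 (0.151 to 10.02) for OXJ. In read bases this is worth 1.33 and 2.88 reads of 100 bases. The sequences of *Mir675* were thus part of an abundant exon. Those of *Mir483* lay in intron sequence covered by a few reads (1.82 a base in JXO and 3.95 in OXJ). Mature microRNAs are too short for these libraries and were not measured.

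The edges of *H19* were sharp. Its first 100 bases had a level of 1005 in JXO and 1102 in OXJ, and the 100 bases before them had no read on (−) in either library. A depth of 100 reads was reached 40 bases after the annotated start in JXO and 39 bases after it in OXJ, and 1000 reads at 57 and 55 bases, that is, behind the run of G bases in the capitals printed above. At the other end, the last 100 bases had 6361 and 7316 and the 100 bases past the end 0.502 and 0.0695. The onset of signal thus differed between the libraries by a few bases.

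**Figure D2:**
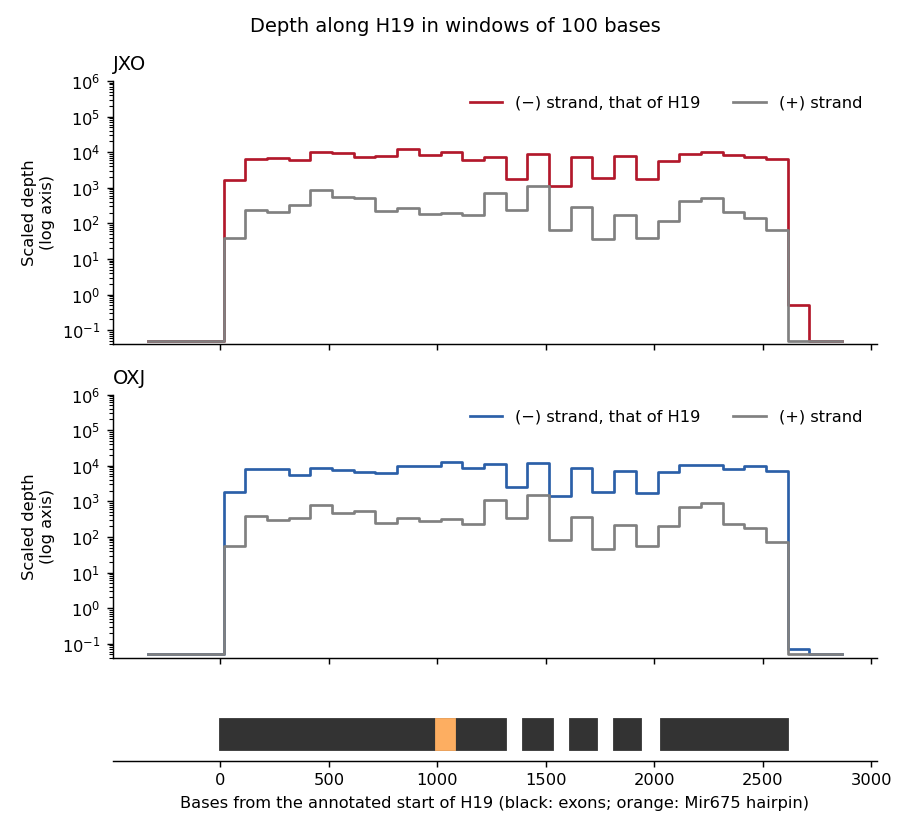
Mean scaled depth (log axis) in windows of 100 bases along *H19* by distance from its annotated start, on (−) and (+), in JXO (upper panel) and OXJ (middle panel); windows without reads are drawn at the bottom, and boxes give exons and the *Mir675* hairpin. The (−) signal stays between 1631 and 11943 in JXO, and 1793 and 12744 in OXJ, over windows wholly in exons of any annotated transcript. It dips over the 4 introns, and is at 0 before the start.

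Within *H19* the ratio of the libraries was not even. Among 22 windows of 100 bases wholly in exons of any annotated transcript, 9 were higher in JXO and 13 higher in OXJ. Their log2 JXO over OXJ ran from -0.59 to 0.33. These counts are against equal depth, and all 22 windows lie below the 0.52 of the median gene. The window chr7:149762234-149762333 (log2 0.01) is among the 9 and consists mostly of intron 3. The highest ratio was at chr7:149763234-149763333 in the middle of exon 1, with a level of 7989 in JXO and 6354 in OXJ. The lowest was at chr7:149762734-149762833, the 3′ end of exon 1, with 7311 and 10999. Exon 2, next to it, was lower in JXO as well (log2 -0.44, 95% interval -0.48 to -0.40). Exon 4 was slightly higher in JXO (0.07, 0.02 to 0.12), though below the median gene. A spread of this size was common. Among 45 exons of at least 1000 bases and 200 reads per base in both libraries, the range of the windows over *H19* exon 1 was 0.92 on the log2 scale, against a median range of 0.92 in the exons of other genes.

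Reads on the (+) strand of *H19* made up a small share that was uneven along the gene. Over the exons they were 4.27% of the signal in JXO and 5.07% in OXJ. Other protein-coding genes of at least 200 reads per base and without an annotated gene on the opposite strand had a median of 2.48% on the opposite strand in JXO (65 genes, range 0.9997 to 5.31%) and 3.25% in OXJ (52 genes, 1.38 to 7.36%). The share at *H19* was exceeded by 2 of the 65 genes in JXO and 3 of the 52 in OXJ. In windows wholly in exons it lay between 1.01 and 11.5% in JXO and between 0.990 and 11.2% in OXJ, and was highest over exon 2, with 10.99% in JXO and 10.8% in OXJ. The (+) signal followed the exons of the (−) strand gene, with a level of 333 over exons and 0.215 over introns in JXO, and of 434 and 0.996 in OXJ. It ended with the gene, since the 2 kb past the end had no (+) read in either library and the 2 kb before the start had 2 reads in JXO and none in OXJ. Whether it stems from incomplete strand marking or from RNA of the (+) strand was not tested.

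*Igf2* was read from a few of its annotated first exons. The gene has 9 annotated transcripts with 5 first exons, which are numbered here in the direction of transcription and which are all spliced to the same next exon, the first that holds coding sequence. Exon 1 (chr7:149852681-149852721) and exon 2 (chr7:149847716-149847775) had no read on (−) in either library, and exons 3, 4 and 5 had signal. Their donor sites are shown because the depth on their exon side is compared next, with the last 10 exon bases in capitals.
Igf2 leader exon 3 donor: CGGCCTTGTGgtgagctccccgtggcgcgc
Igf2 leader exon 4 donor: CGGCTTCCAGgtaagggctctcaggggccc
Igf2 leader exon 5 donor: CCAACTTCAGgtaaccagggctgtggagcc
The 100 bases upstream of the 3 starts are shown as the DNA before each used exon (mm9, (−) strand). Of these 100 bases, 53 are G or C before exon 3, 77 before exon 4 and 69 before exon 5.
Igf2 leader exon 3 upstream: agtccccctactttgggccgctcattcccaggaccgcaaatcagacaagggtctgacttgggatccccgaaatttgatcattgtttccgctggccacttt
Igf2 leader exon 4 upstream: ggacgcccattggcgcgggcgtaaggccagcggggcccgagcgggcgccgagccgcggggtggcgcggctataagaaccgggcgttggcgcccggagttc
Igf2 leader exon 5 upstream: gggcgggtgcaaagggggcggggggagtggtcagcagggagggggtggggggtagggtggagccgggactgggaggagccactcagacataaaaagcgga

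The last 20 bases of exon 5 (chr7:149843293-149843401), the first exon nearest to the coding exons, had the highest depth, 416 in JXO and 340 in OXJ. Exon 3 (chr7:149846837-149847210) had 339 in JXO and 241 in OXJ at its donor edge. Exon 4 (chr7:149844269-149845394), the longest, had 37.2 and 37.5. Taken as shares of all donor edges, exon 5 held 52.5% in JXO (49.7 to 55.4%) and 55.0% in OXJ (52.0 to 58.0%), exon 3 held 42.8% (40.0 to 45.6%) and 38.9% (36.01 to 41.9%), and exon 4 held 4.70% (3.58 to 6.04%) and 6.07% (4.71 to 7.67%). These intervals count each read over an edge base once. The order of the first exons was the same in both libraries and their intervals overlapped between JXO and OXJ. The donor edges added up to 81.5% of the depth at the acceptor edge of the first coding exon in JXO (971) and to 79.3% in OXJ (780). In each first exon the signal began inside the annotated start. A depth of 10 reads was reached 60 bases into exon 3 in JXO and 81 in OXJ, 127 and 105 bases into exon 4, and 26 bases into exon 5 in both.

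**Figure D3:**
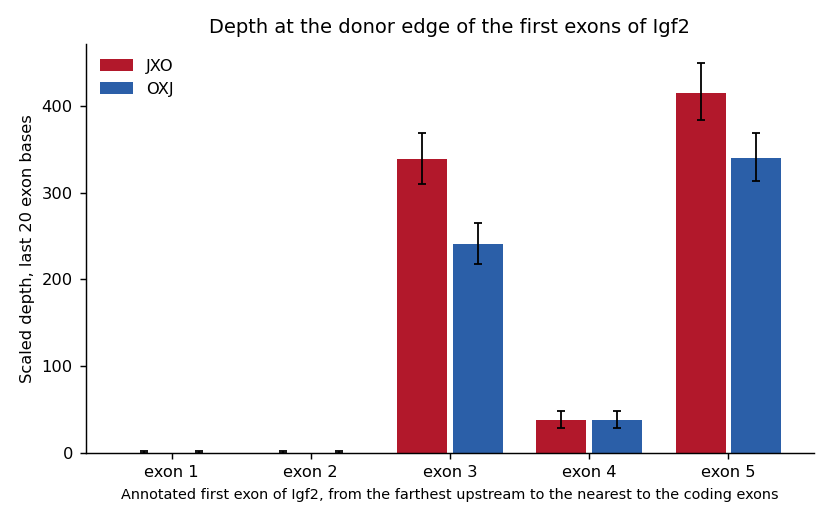
Mean scaled depth over the last 20 bases of each annotated first exon of *Igf2* on (−), in JXO (red) and OXJ (blue); bars start at 0 and the lines are 95% Poisson intervals on reads. Exons 1 and 2 are at 0, exon 4 is near 37 in both libraries, and exons 3 and 5 hold nearly all signal.

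Exon 4 had a ratio below 0, unlike the other first exons with signal. Its level was 18.9 in JXO and 26.7 in OXJ, a log2 ratio of -0.49 (-0.79 to -0.21), while exon 3 stood at 0.53 (0.21 to 0.85) and exon 5 at 0.42 (0.09 to 0.74). The interval of exon 4 overlaps neither of the others. Against the median gene at 0.52, exon 3 was close to it and exon 5 below it, so the direction of these ratios depends on the scaling. Near the donor of exon 4 both libraries were alike (39.4 in JXO and 36.4 in OXJ at chr7:149844273-149844372), and the difference was in its 5′ portion. A shorter form of exon 4 is annotated as well (chr7:149844269-149844709), and over it the log2 ratio was -0.19 (-0.60 to 0.22), with 27.4 in JXO and 31.2 in OXJ. The part upstream of that form (chr7:149844710-149845394) had 13.5 and 23.8 (-0.81, -1.25 to -0.39). There the window chr7:149845073-149845172 had 12.2 in JXO and 34.9 in OXJ.

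The body of *Igf2* also differed along its length. Both internal coding exons had nearly the same depth in the libraries, at 915 in JXO and 854 in OXJ for the exon at chr7:149841559-149841721 (log2 0.10, -0.02 to 0.22), and 771 and 757 for that at chr7:149840205-149840353 (0.03, -0.11 to 0.16). Both ratios lie below the 0.52 of the median gene. The last exon (chr7:149836673-149839957), which ends the coding sequence and holds the long 3′ untranslated region, had 1177 in JXO and 680 in OXJ (0.79, 0.77 to 0.82). It thus stood 1.39-fold above the internal coding exons in JXO and at 0.842 of them in OXJ. Since the last exon holds most exon bases, it sets the ratio of the gene. Without it, an alternative chosen after seeing the data, the ratio of *Igf2* was 0.07 in place of 0.72.

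Within the last exon all 32 windows of 100 bases were higher in JXO, but by log2 values that ran from 0.13 to 2.56 (median 0.79), and 10 of them reached 2-fold. The median gene was itself at 0.52, so the lowest of these windows lie below it. With the median gene set equal, those windows would not be higher in JXO. The share of 2-fold windows in other genes was not counted. Having every window higher in JXO was not particular to this exon and held for most of the 45 deep exons. Examples were *Impad1* (54 of 54 windows) and *Rlim* (68 of 68), while *Thbd* had 12 of 36. Near the 3′ end of the last *Igf2* exon the libraries were close, with 1688 in JXO and 1545 in OXJ at chr7:149836873-149836972. The largest ratio was at chr7:149838073-149838172, with 1520 in JXO and 258 in OXJ. A further high ratio of 2.16 was at chr7:149839273-149839372, with 705 and 158. Between such places the ratio fell back, for example to 0.53 at chr7:149838573-149838672, with 822 and 571. The profile also had deep valleys in both libraries, at chr7:149838273-149838372 (117 in JXO and 51.5 in OXJ) and chr7:149837473-149837572 (298 and 167). The window at the second place overlaps a 59-base intron annotated in another transcript (chr7:149837530-149837588), which had 103 and 32.6. A large intron that a further annotated transcript removes from this exon (chr7:149837535-149839699) kept a level of 1109 and 509. The range of 2.43 over these windows was the second largest of the 45 deep exons, behind *Rian*, with a median of 0.92 in exons of other genes. In the known pattern this RNA comes from the OG2 chromosome in JXO and the JF1 chromosome in OXJ, and reads were aligned to the C57BL/6J genome. Whether reads of JF1 origin were aligned less often in these windows was not tested.

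**Figure D4:**
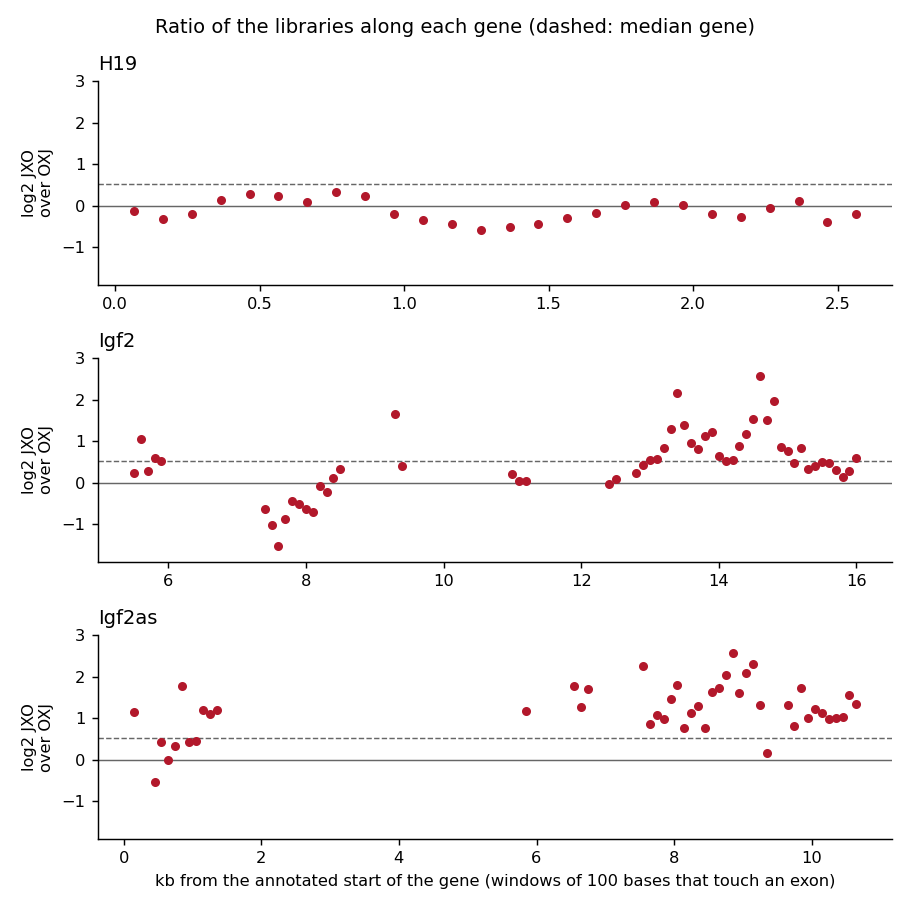
Log2 ratio of JXO over OXJ in windows of 100 bases that touch an exon and have at least 1 read per base in both libraries, by distance from the annotated start of *H19* (top), *Igf2* (middle) and *Igf2as* (bottom); the solid line is 0 and the dashed line is the median gene (0.52). *H19* windows wholly in exons stay between -0.59 and 0.33, the last exon of *Igf2* runs from 0.13 to 2.56, and most *Igf2as* windows lie above the dashed line.

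The introns of *Igf2* held little RNA. The intron between exon 5 and the first coding exon had a level of 2.66 in JXO and 2.52 in OXJ, the next 1.93 and 2.20, and the intron before the last exon 3.55 and 2.59. Over the bases outside all its exons, *Igf2* had 0.143% of its exon level in JXO and 0.197% in OXJ. At the donor of the first of these introns the depth dropped from exon to intron 319-fold in JXO and 126-fold in OXJ. The (+) strand held 2.22% of the signal over *Igf2* exons in JXO and 3.58% in OXJ, near the medians of 2.48 and 3.25% of the deep genes above.

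On the strand opposite to *Igf2*, the (+) signal was higher over each exon of *Igf2as* than over its introns. The tracks hold no splice junction, so splicing itself was not measured. The donor sites of *Igf2as* introns 1 and 3 on (+) are shown because they set the direction of the transcript, with the last 10 exon bases in capitals.
Igf2as intron 1 donor: GCTGCTGAAGgtgagcgagaccccaagggc
Igf2as intron 3 donor: CACACCAAAAgtaagtaagggttgctgtgg
Both of these introns of Igf2as-001 start with GT and end with AG on the (+) strand. Exon 1 (chr7:149845598-149846934) had a (+) level of 4.39 in JXO and 2.48 in OXJ, exon 2 10.3 and 4.39, exon 3 (chr7:149852161-149852372) 20.2 and 7.17, and the last exon (chr7:149853091-149856261) 13.5 and 5.39. The introns had 0.415 and 0.215 (intron 1), 2.60 and 0.165 (intron 2) and 0.547 and 0.161 (intron 3). Most of intron 2 lies in an exon of another annotated *Igf2as* transcript, and those bases are counted in the exon level of the gene. The log2 ratio of intron 2 was 3.97 (1.21 to 9.54), from 26.9 reads in JXO and 1.93 in OXJ. Over all bases outside exons the level was 4.85% of that of the exons in JXO and 4.80% in OXJ, a larger share than in *H19* and *Igf2*, and here few reads stand behind it (40.8 in JXO and 18.5 in OXJ). At the donor of intron 1 the exon side had 8.41 and 2.49, and the intron side 0.782 and 0.579.

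*Igf2as* was higher in JXO along most of its length. The log2 ratio was 0.82 in exon 1 (0.12 to 1.55), 1.49 in exon 3 (0.53 to 2.54) and 1.33 in the last exon (1.04 to 1.61), with overlapping intervals. Of 40 windows wholly in exons and with at least 1 read per base in both libraries, 38 were higher in JXO, 27 of them by 2-fold or more, and 2 were higher in OXJ, both in exon 1. These counts are against equal depth, while the median gene was at 0.52. With the median gene set equal, the exons of *Igf2as* together stood at 0.78, below 2-fold. The share of such windows in other genes was not counted. The signal ended near the annotated end. The last 100 bases had 3.82 in JXO and 1.42 in OXJ, and the next 100 bases 0 and 0.434.

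*Igf2* and *Igf2as* share 7124 bases of gene body and 98 bases of exon, the end of *Igf2as* exon 1 and the donor end of *Igf2* exon 3. In these 98 bases (chr7:149846837-149846934) the (−) level was 193 in JXO and 130 in OXJ and the (+) level 13.4 and 6.21, so that (+) made up 6.51% in JXO and 4.57% in OXJ. These shares are above the medians of the opposite strand in deep genes. *Igf2* exons outside *Igf2as* also held (+) signal. It was 4.18% in JXO and 5.08% in OXJ in the first coding exon, and 5.81% and 7.82% in the next. In first exon 5 it was 0.955% and 0.487%, and in the last exon 2.00% and 3.24%. How much of the (+) signal in the 98 shared bases is *Igf2as* was not tested. Over all exons of *Igf2as*, 69.8% of the signal was on (+) in JXO and 58.9% in OXJ. In the part of *Igf2as* that lies beyond the start of *Igf2*, in contrast, the (−) strand held only 3.48% in JXO and 2.63% in OXJ, and the (+) level was 12.1 and 4.84. There the log2 ratio was 1.32 (1.03 to 1.61), close to the 1.30 over all exons.

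**Figure D5:**
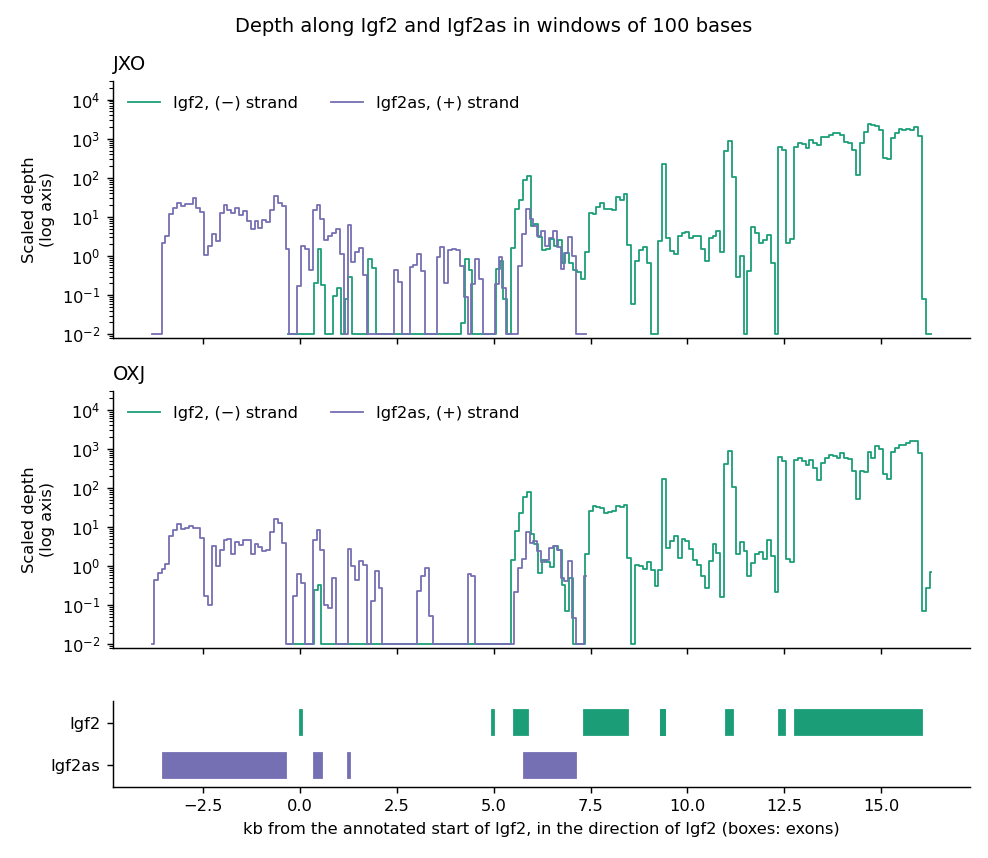
Mean scaled depth (log axis) in windows of 100 bases along *Igf2* on (−) and *Igf2as* on (+), by distance in kb from the annotated start of *Igf2* in its own direction, in JXO (upper panel) and OXJ (middle panel), with exons as boxes; windows without reads are drawn at the bottom. *Igf2* peaks over first exons 3 to 5 and the coding exons. Most *Igf2as* signal lies upstream of the *Igf2* start, with further signal over exons 1 to 3 of *Igf2as* inside the *Igf2* gene, of which exon 3 is the deepest.

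The sequence between *H19* and *Igf2*, 72.6 kb, was nearly silent. On (−), 2 of 72 full bins of 1 kb had a read in JXO (2.78%, 0.338 to 9.68%) and 3 of 72 in OXJ (4.17%, 0.868 to 11.7%), and on (+) 1 of 72 in either library. The reads amounted to 6.12 on (−) and 2 on (+) in JXO, and 9.12 and 1 in OXJ, over the whole interval. Most (−) reads of OXJ lay within 2 kb past the end of *Igf2* (6.12, against 2.12 in JXO). The longest run without a (−) read was 46705 bases in JXO and 34792 in OXJ.

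The window 2 to 4 kb upstream of *H19* (chr7:149766048-149768047), the textbook position of the imprinting control region, had no read on either strand in either library, which allows a level of up to 0.0978 in JXO and 0.0868 in OXJ (3 reads per strand). The DNA of this window is shown because of its matches to the core of the CTCF motif, searched as GGNGGCAG on both strands, in capitals. All 5 matches are on the (−) strand and run from 3891 to 2166 bases upstream of *H19*.
CTCF core match 1: agttgccgcgtGGTGGCAGcaaaatcgatt
CTCF core match 2: aatgccactagGGGGGCAGgacacatgcat
CTCF core match 3: ggttgccgcacGGCGGCAGtgaagtctcgt
CTCF core match 4: tgctaccgcgcGGTGGCAGcatactcctat
CTCF core match 5: cgatgccgcgtGGTGGCAGtacaatactac
At least 1 match was found in 38.9% of 70879 windows of 2000 bases on chromosome 7, and 5 or more in 0.193%. A match is a description of the DNA, and binding was not measured here.

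Outside the 3 genes, few neighbours were read. On the side of *H19*, *Nctc1*, a non-coding RNA on (−), was at 0 in both libraries, and the mitochondrial ribosomal protein gene *Mrpl23* had a level of 14.2 in JXO and 9.17 in OXJ. *Lsp1*, which codes for an actin-binding protein of leukocytes and other cells, had 58.5 and 34.6. The muscle genes *Tnni2* (1.004 and 1.04) and *Tnnt3* (1.26 and 1.06) and *Syt8* (0.971 and 1.60) were near the worth of a few reads, and *Gm14492* was at 0 in JXO and 0.0863 in OXJ. On the side of *Igf2as*, the insulin gene *Ins2* was at 0 in both, and the pseudogene *Gm7290* (1.34 and 0.640) was near the worth of a few reads. The ratios of *Lsp1* (log2 0.76) and *Mrpl23* (0.63) were close to the median gene.

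Genes of the IGF pathway were mostly outside the covered stretches, with 5 of 24 measured, *Igf2* included. Beside *Igf2* and *Ins2* they were the receptor *Igf2r*, which binds IGF2 and leads it to degradation (73.3 in JXO and 81.1 in OXJ), the binding protein gene *Igfbp6* (25.8 and 33.5) and the adaptor *Grb10*, which dampens receptor signalling (614 and 486). None of the 4 with at least 10 reads per exon base, *Igf2* included, reached 2-fold, where 8.73% of all such genes did. Their median log2 ratio was 0.10, against 0.52 over all genes. *Igf2* itself was at 0.72, *Grb10* at 0.34, *Igf2r* at -0.15 and *Igfbp6* at -0.38. Of 14 imprinted growth genes 12 were measured and 11 had at least 10 reads. Among these the amino acid transporter *Slc38a4* reached 2-fold higher in JXO (339 and 141), 1 of 11 and so near the 8.73% of all genes, and the median was 0.53. The 4 highest were *Grb10*, *Slc38a4*, *Gnas* (184 and 128) and *Mest* (169 and 106). Of 13 factors linked to imprinting control regions 6 were measured. *Ctcf* had a level of 54.4 in JXO and 36.3 in OXJ, the zinc finger gene *Zfp57*, which protects methylated imprints, 30.1 and 22.5, the maintenance methyltransferase *Dnmt1* 77.1 and 59.2, and the de novo methyltransferase *Dnmt3a* 17.8 and 11.99. None of these 4 reached 2-fold, beside the same 8.73% of all genes.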

How the data were processed

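Ribosomal RNA was removed from MEF RNA, and libraries that keep the strand (dUTP method) were read from both ends. The submitters' processing notes name CASAVA 1.9 and TopHat 1.2.0, and reads were aligned to mm9 at up to 10 loci. The deposited values are log2 of 1 plus the depth per base, which the authors scaled to 50000000 aligned reads. They were turned back into depth, and the lowest value gave the worth of a read (whole numbers within a relative deviation of 3.61e-14). Tracks named forward held RNA of (−), as the coding genes showed. The tracks hold only part of each library, which made 618 stretches when gaps below 50 kb were bridged.

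Genes were those of GENCODE M1 on mm9, measured over all annotated exon bases. Pairs were counted as 200 read bases. With 1 library per cross no test was run. The measuring code was tested on simulated data of 1000 genes. Software was Python 3.11.15 with scipy 1.17.1, pandas 2.3.3, numpy 2.4.6 and matplotlib 3.10.9.

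The genes and lists were chosen with earlier results of these data known. All 3 genes, their exons and introns, the first exons of *Igf2*, the microRNAs inside, genes within 150 kb, the 4 highest members of each list and the 3 nearest genes were named; the introns of *H19*, under 100 bases, were added. Of single windows, those with the highest and lowest ratios and some contrasting places were picked with their values in view. The alternatives varied the measure, the exons, the scaling, the bins and the read minimum. *Igf2* promoter sequences were read from mm9. One splice-site sequence is not reported here.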

Additional observations from a re-analysis of the deposited data

How the results depend on the processing

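The order of the exon levels and the direction of the 3 ratios held under all alternatives run. Exon levels in JXO and OXJ were 5145 and 5486 (*H19*), 212 and 157 (*Igf2*) and 6.77 and 2.81 (*Igf2as*) from means of log2 values; 7558 and 8311, 727 and 392, and 7.82 and 2.89 from medians; and 7791 and 8630, 1240 and 792, and 4.01 and 1.78 over exon bases of at least 50% of the transcripts. Without overlap with opposite genes *Igf2* had 832 and 505 and *Igf2as* 13.5 and 5.39. The log2 ratio was -0.30 (*H19*) and 0.54 (*Igf2*) at equal totals of the deposited signal, -0.32 and 0.52 with *H19* and *Igf2* left out of the totals, -0.64, 0.19 and 0.78 (*Igf2as*) with the median gene set equal, and -0.0925, 0.43 and 1.03 from mean log2 values. Without its last exon *Igf2* had 0.0727, an alternative chosen after seeing the data. The share on the own strand was 97.5% for *Igf2* in JXO and 65.7% for *Igf2as* in JXO over the whole genes, and 96.5% and 97.4% for *Igf2as* in JXO and OXJ without the overlap. From medians, introns had 0.0862% and 0.0906% of the exon level in *H19* and 0 in *Igf2* and *Igf2as*. Of the 72 full bins between *H19* and *Igf2*, 0 had at least 5 reads over a base; the remainder next to *Igf2*, which is in no bin, had a base with 9 reads on (−) in both libraries. Genes with a 2-fold ratio numbered 200 of 1031 without a read minimum and 23 with the median gene set equal, against 48 of 550. The other 29 alternatives stayed within the counting intervals. Introns of *H19* are too short to leave out 50 bases at each side, so that was not run. No paired analysis was possible because each cross had 1 library.

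Depth limits *Igf2as* and all introns, where few reads stand behind a level, while the strain of the expressed allele, the embryo and the library cannot be told apart for any ratio. The tracks hold no allele, no single read and no splice junction.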
